A study of Mus musculus with 2 samples.

Results

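Of the 24357 named genes in the deposited tables, 45 handle iron, zinc or copper and are described here. They were taken by symbol: every listed Slc30a and Slc39a zinc transporter, and 21 named genes of iron uptake, export, storage and regulation, of copper traffic, of heme breakdown and of metal buffering. Messenger RNA came from epithelial cells of the ileum, the end of the small intestine, of wildtype C57BL/6 mice. The cells were freed with EDTA and sorted for the epithelial protein EpCAM, against the leukocyte protein CD45 and against uptake of the dead-cell dye 7AAD. All samples form 1 group of 2 libraries, numbered 1 and 2 here in accession order, so no treatment, genotype or time was compared; the series' title gives receptors of the Nod-like family as its aim. The labels used here state no age for the mice; the sample titles carry the code D15, which the labels do not explain. Values are FPKM, fragments scaled by transcript length and by library size. They are a level per length, and levels were not adjusted here for GC content, so different genes compare only roughly. Where a pair of values is given, replicate 1 comes first; ± stands for the SD of the pair (n = 2).

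Metals are both nutrients and poisons, and the intestinal epithelium decides how much of each enters the body. Iron is reduced at the luminal face, taken up by the proton-coupled transporter DMT1, stored in ferritin or exported to the blood by ferroportin, which the liver hormone hepcidin removes. Iron regulatory proteins bind hairpins called iron responsive elements (IREs) in messenger RNAs: bound near the start they block translation, and bound behind the coding part they protect the RNA from decay. Zinc enters the cytosol through ZIP proteins (Slc39a genes) and leaves it through ZnT proteins (Slc30a genes), and the transcription factor MTF1 raises metallothionein and ZnT1 genes through metal response elements (MREs) when zinc is high. Copper enters through CTR1, is carried by the chaperone ATOX1 and is pumped out by P-type ATPases.

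The hairpins through which iron acts on these messages are shown first, because storage and export genes carry them at the opposite end from the uptake receptor. A search of GENCODE M21 transcripts on GRCm38 (mm10) asked for a C, 5 bases, the loop CAGTGN and 5 bases that pair with the first 5. It found the pattern in 4 of 45 members (8.89%) and in 262 of 20591 protein-coding genes (1.27%). In the 29-base stretches below, written 5′ to 3′ as DNA, capitals mark the 6-base loop. The coordinates give the 17 bases of the C, stem and loop in GRCm38, and 6 more bases are printed on either side.
Fth1, 5′ UTR, chr19:9982738-9982754, plus strand: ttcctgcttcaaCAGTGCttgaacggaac
Ftl1, 5′ UTR, chr7:45459785-45459801, minus strand: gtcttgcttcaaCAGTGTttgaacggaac
Slc40a1, 5′ UTR, chr1:45925471-45925487, minus strand: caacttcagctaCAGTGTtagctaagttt
Tfrc, 3′ UTR, chr16:32631225-32631241, plus strand: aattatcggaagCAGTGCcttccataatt
Tfrc, 3′ UTR, chr16:32631604-32631620, plus strand: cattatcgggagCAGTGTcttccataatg
Tfrc, 3′ UTR, chr16:32631669-32631685, plus strand: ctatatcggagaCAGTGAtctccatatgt
Tfrc, 3′ UTR, chr16:32631716-32631732, plus strand: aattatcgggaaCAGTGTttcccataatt
The 3 genes of storage and export held 1 match each, before the coding part, and the transferrin receptor gene Tfrc held 4, all behind it. A match is a description of the letters and says nothing about binding in these cells. Messages of other members with a looser hairpin would not be found by this pattern.

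The promoters of the metallothionein genes are shown because MREs define them and because Mt1 and Mt2 stood at very different levels. The MRE core was searched as TGCACNC or TGCGCNC on both strands, in RefSeq windows (GRCm38.p6) of 250 bases before and 50 bases after each transcription start. Windows existed for 37 of the 45 members, 46 windows in all. In the stretches below, which run to 30 bases past the RefSeq start, capitals mark the cores.
Mt1, chr8:94178839-94179118, plus strand: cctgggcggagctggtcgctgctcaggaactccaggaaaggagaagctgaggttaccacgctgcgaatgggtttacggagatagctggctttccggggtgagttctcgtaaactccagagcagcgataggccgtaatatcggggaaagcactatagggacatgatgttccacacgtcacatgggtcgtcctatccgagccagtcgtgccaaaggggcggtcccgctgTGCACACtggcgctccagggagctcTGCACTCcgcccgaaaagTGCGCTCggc
Mt2, chr8:94172368-94172647, plus strand: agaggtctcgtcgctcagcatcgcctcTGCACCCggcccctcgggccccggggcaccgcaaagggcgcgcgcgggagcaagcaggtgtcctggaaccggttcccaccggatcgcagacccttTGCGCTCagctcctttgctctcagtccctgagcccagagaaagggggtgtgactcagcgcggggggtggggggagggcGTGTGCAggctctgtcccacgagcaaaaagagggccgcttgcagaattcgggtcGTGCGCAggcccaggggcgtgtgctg
Slc30a1, chr1:191906531-191906810, plus strand: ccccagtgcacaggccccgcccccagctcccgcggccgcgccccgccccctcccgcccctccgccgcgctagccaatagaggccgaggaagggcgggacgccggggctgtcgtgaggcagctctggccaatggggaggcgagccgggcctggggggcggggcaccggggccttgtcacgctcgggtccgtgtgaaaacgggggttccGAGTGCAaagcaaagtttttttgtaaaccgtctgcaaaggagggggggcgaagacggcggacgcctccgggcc
Mt2 held 4 cores in its whole window, Mt1 held 3, and Slc30a1, the zinc exporter ZnT1, held 2, of which the one starting 31 bases into the transcript lies past the printed stretch. Of the member windows 43.5% held at least 1 core, against 25.7% of all 32851 windows, and 8.70% held 3 or more, against 1.97% of all. The other windows with 3 were those of the exporter genes Slc30a10, where 2 of the matches overlap on opposite strands, and Slc30a4. The hypoxia response core, ACGTG or GCGTG on both strands, was in 63.0% of member windows and 43.8% of all windows. The searches overlap, since the MRE core TGCACGC contains CACGC, the reverse complement of GCGTG. GC content of the windows was not adjusted for. GENCODE M21 places the start of Mt2 downstream of the RefSeq start used here.

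**Figure D1:**
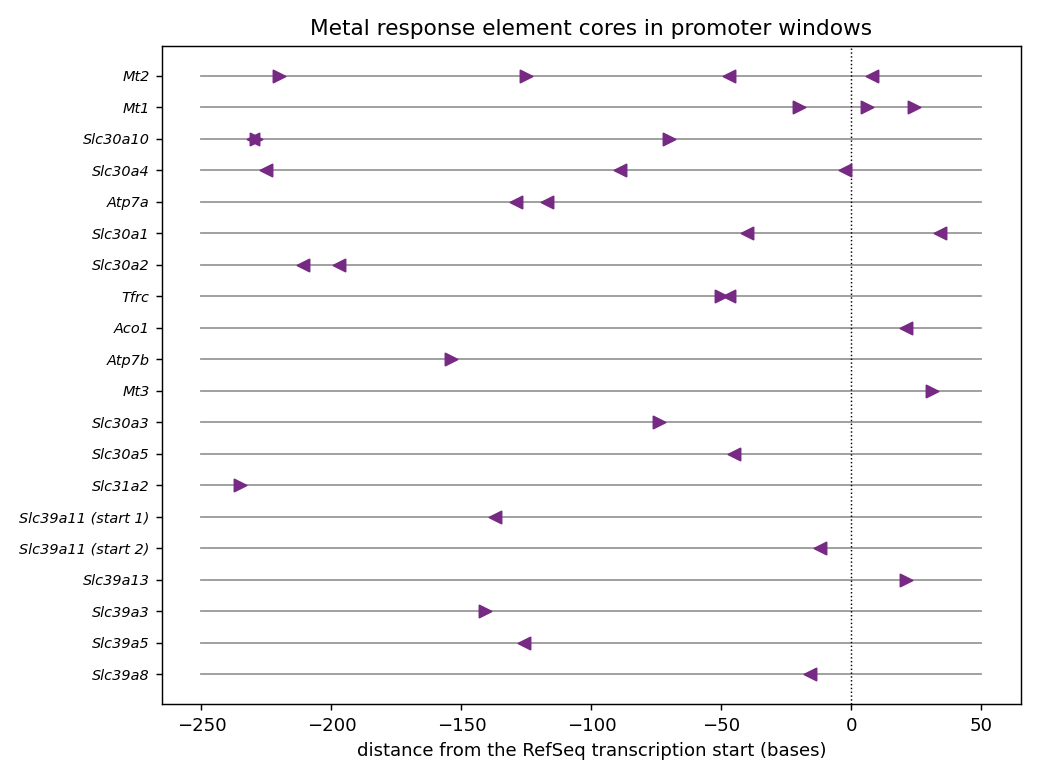
Metal response element cores in the RefSeq promoter windows that held at least 1, drawn by distance from the transcription start in bases (x axis), 1 line per window. Arrowheads to the right are matches on the gene's strand and to the left on the other strand; Mt2 has 4 and Mt1, Slc30a10 and Slc30a4 have 3.

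Most of this machinery was transcribed in the sorted cells. At a minimum of 1 FPKM in both libraries 35 of 45 members (77.8%) were expressed, where the same count over all named genes gave 42.3%. The median member had 12.4 FPKM and the median named gene 0.322 FPKM. Levels ran from 2291 ± 83.9 FPKM for Fth1 down to Slc30a8 and Slc39a12, both listed at 0. The 5 highest members, Fth1, Ftl1, Atox1, Slc39a4 and Mt1, held 86.6% of the summed FPKM of all members in replicate 1 and 86.0% in replicate 2. All members together held 0.733% and 0.750% of the summed FPKM of all genes.

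**Figure D2:**
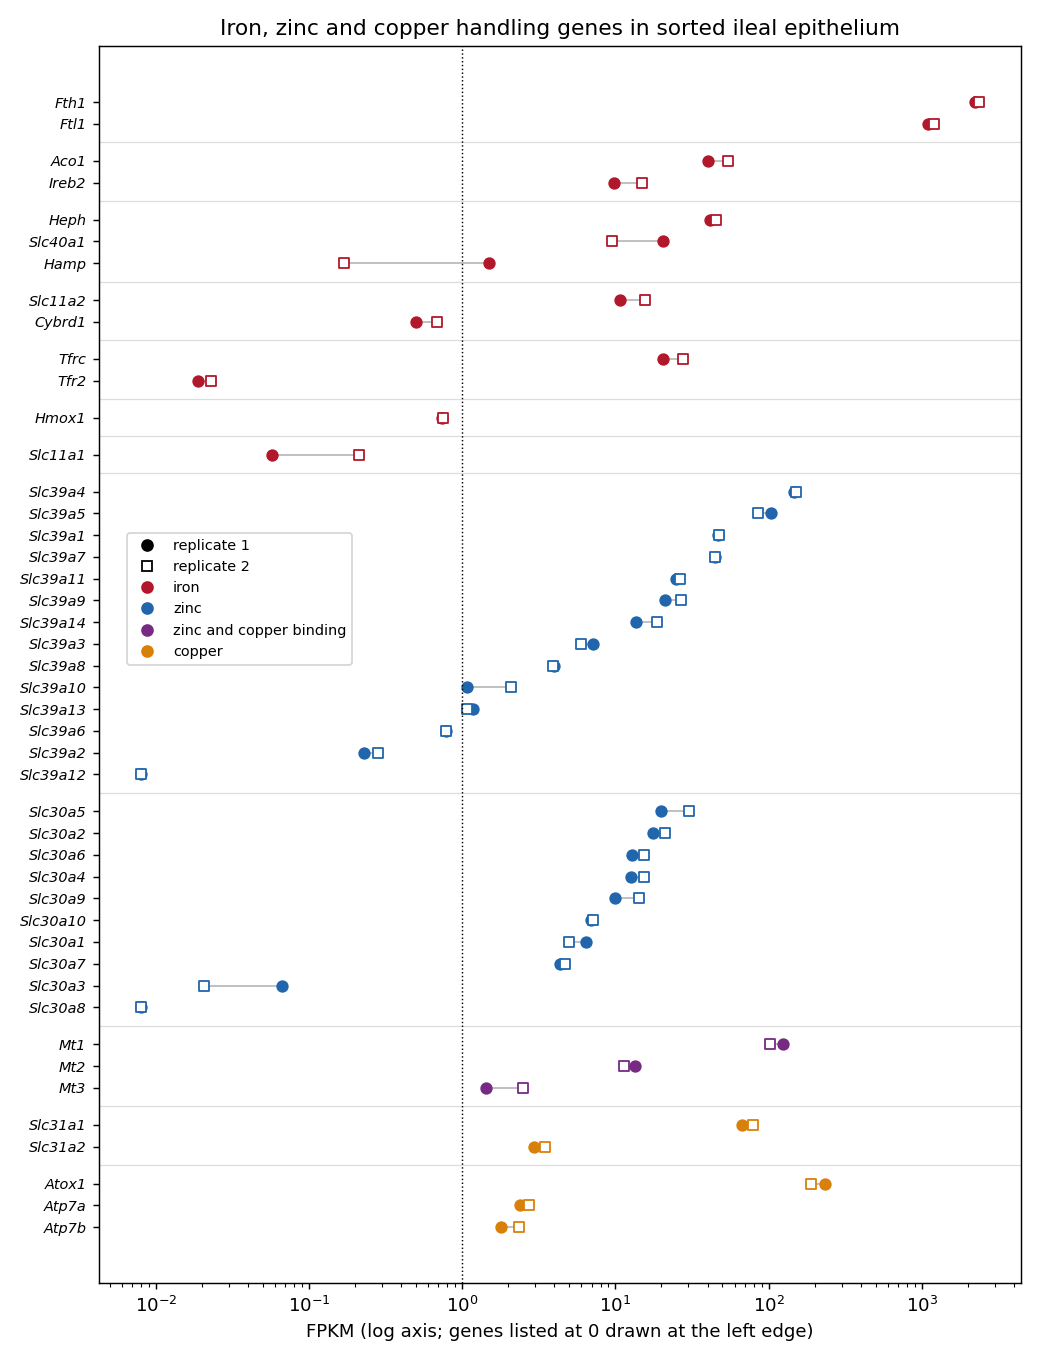
FPKM of all 45 members on a log axis, grouped by role, with filled circles for replicate 1 and open squares for replicate 2, joined by a line. The dotted line marks 1 FPKM; the ferritin genes Fth1 and Ftl1 stand far to the right of the rest, and the 2 libraries lie close together for most members except Hamp, Slc40a1 and those near 0.

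Ferritin storage dominated the iron genes. Fth1, the heavy chain that oxidises iron, had 2232 and 2350 FPKM. Ftl1, the light chain that supports mineral formation in the shell, had 1100 and 1203 FPKM. Together they held 75.2% and 76.6% of the summed level of all members, and Fth1 stood 2.03 and 1.95 times above Ftl1. That step of 0.99 in log2(FPKM + 1) barely exceeded 0.98, the 95th percentile of the difference between the libraries among the 200 genes nearest in level. The Ftl1 value is uncertain, since 58.4% of its 50-base words also occur in other genes, led by Ftl1-ps1, and 34.6% of its exon bases overlap other genes. For Fth1 1.59% of words were shared. Fth1 lies at chr19:9980598-9985098 on the plus strand and Ftl1 at chr7:45457944-45459884 on the minus strand.

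The iron regulatory proteins, which bind the hairpins printed above, were both expressed. Aco1, which is IRP1 without its iron-sulfur cluster and cytosolic aconitase with it, had 40.2 and 54.2 FPKM. Ireb2, the iron regulatory protein IRP2, had 9.80 and 15 FPKM. Aco1 exceeded Ireb2 4.11-fold in replicate 1 and 3.62-fold in replicate 2, a step of 1.86 in log2(FPKM + 1) against a limit of 0.69 set in the same way.

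Uptake of inorganic iron was represented by its transporter and hardly by its reductase. Slc11a2, the transporter DMT1, had 10.8 and 15.7 FPKM. Cybrd1, the ferric reductase named for the duodenum as duodenal cytochrome b, had 0.499 and 0.682 FPKM, so both libraries lay under 1 FPKM. These rested on roughly 42 and 93 fragments, well over the 3 fragments taken as a floor, which correspond to 0.0360 and 0.0219 FPKM for this gene. Of the 4 other metalloreductase genes of the partner list, Steap1 had 4.01 and 3.19 FPKM, Steap3 had 2.31 and 3.17 FPKM, Steap2 had 0.770 and 1.02 FPKM and Steap4 had 0.0623 and 0.0382 FPKM. The transferrin receptor Tfrc, which takes iron from the blood side, had 20.3 and 27.6 FPKM. Tfr2, the receptor paralog known from liver and red cell precursors, had 0.0188 and 0.0230 FPKM, below the level that 3 fragments would give.

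Of the 35 expressed members 1, the export gene Slc40a1, differed by over 1 in log2(FPKM + 1) between the libraries, where 1.53% of all genes did. Slc40a1, which encodes ferroportin, the iron exporter of the basolateral face, had 20.6 and 9.54 FPKM. Heph, the copper-dependent oxidase hephaestin that works beside ferroportin, had 41.2 and 45.7 FPKM. Hephaestin transcripts therefore stood 2.0 times above those of ferroportin in replicate 1 and 4.79 times in replicate 2, and the ratio of Tfrc to Slc40a1 was 0.989 and 2.89. Hamp, which encodes hepcidin, had 1.51 and 0.169 FPKM, roughly 6 fragments and 1 fragment, so no ratio is given. The hepatocyte transcripts Alb and Ahsg had 0 and 0 FPKM in replicate 1 and 0.101 and 0 FPKM in replicate 2, while the other 2 of the 4 hepatocyte genes, Ttr and Serpina1a, had 6.10 ± 0.621 and 8.48 ± 0.908 FPKM. Their summed level was 15.7 and 13.6 FPKM, and their part in the Hamp value was not tested. Of Hamp's words 16.6% also occur in Hamp2, which was listed at 0. Slc40a1 lies at chr1:45908068-45926523 on the minus strand and shared no words with other genes.

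The members for heme breakdown and phagosomes, 1 gene each, stayed under 1 FPKM. Hmox1, the inducible heme oxygenase, had 0.740 and 0.755 FPKM, while Hmox2, its constitutive relative from the partner list, had 25.3 and 27.1 FPKM. Other heme genes of that list were expressed as well, among them the biliverdin reductase gene Blvrb at 43.2 ± 2.52 FPKM and Alas1, for the first step of heme synthesis, at 33.0 ± 1.67 FPKM. Slc11a1, the metal exporter NRAMP1 of macrophage phagosomes, had 0.0577 and 0.213 FPKM, against floors of 0.0865 and 0.0530 FPKM. Of 7 myeloid genes 3 reached 1 FPKM in both libraries, with Lyz2 the highest at 5.87 and 7.08 FPKM and Adgre1, which defines macrophages, at 0.0201 and 0 FPKM. Their summed level was 12.6 and 11.2 FPKM. The part of such cells in the Slc11a1 value was not tested.

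Zinc importers formed the largest pool outside ferritin, with a summed level of 416 and 414 FPKM. Slc39a4 led them at 148 and 151 FPKM; it encodes ZIP4, the importer of dietary zinc at the luminal face, whose loss in humans causes the zinc deficiency acrodermatitis enteropathica. Slc39a5, the basolateral importer ZIP5, followed at 103 and 85.3 FPKM. Together they held 60.2% and 56.9% of the ZIP pool. The step between them, 0.66 in log2(FPKM + 1), missed its limit of 0.67 although the libraries gave the same order without overlap. Slc39a4 lies at chr15:76612383-76617384 and Slc39a5 at chr10:128395931-128401229, both on the minus strand.

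The remaining ZIP genes formed steps. Slc39a1, a plasma membrane importer, had 46.8 and 47.8 FPKM, and Slc39a7, which releases zinc from the endoplasmic reticulum, had 44.9 and 44.6 FPKM. The step from Slc39a5 down to Slc39a1 was 0.97 against a limit of 0.68. Slc39a11 with 24.8 and 26.3 FPKM, Slc39a9 of the Golgi with 21.1 and 27.0 FPKM and Slc39a14 with 13.7 and 18.7 FPKM came next. Slc39a14 encodes ZIP14, which carries zinc, manganese and iron. Slc39a3 had 7.11 and 5.95 FPKM and Slc39a8, the manganese and zinc importer ZIP8, 3.98 and 3.93 FPKM. Slc39a10 and Slc39a13 were between 1.07 and 2.07 FPKM in every library. Of the 14 ZIP genes 11 reached 1 FPKM in both libraries, and those that did not were Slc39a6 at 0.783 and 0.785 FPKM, Slc39a2 at 0.228 and 0.280 FPKM, and Slc39a12, listed at 0. A count of 3 fragments would have given Slc39a12 0.0741 FPKM in replicate 1 and 0.0454 FPKM in replicate 2. Within the family 4 of 10 neighbouring steps passed their limit. Slc39a7 is uncertain, as 74.5% of its words are shared with the overlapping gene Gm20427, and 21.8% of those of Slc39a1 are shared with Slc39a1-ps.

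Zinc exporters had a summed level of 90.5 and 113 FPKM, so that the sum over 14 importer genes exceeded that over 10 exporter genes 4.6-fold in replicate 1 and 3.66-fold in replicate 2. The typical gene differed little, with a median of 11.3 FPKM over the importers and 9.56 FPKM over the exporters. Slc30a5 was highest at 19.8 and 30.4 FPKM, and Slc30a6 had 12.8 and 15.3 FPKM; their products pair to load zinc into the secretory pathway. Slc30a2, which fills secretory vesicles and is known from Paneth cells, the zinc-rich antimicrobial cells of the crypt, had 17.7 and 21 FPKM. The 6 Paneth cell markers were all higher in replicate 2, with a summed level of 12841 and 23625 FPKM, led by Defa24, and the part of Paneth cells in the Slc30a2 value was not tested. Slc30a4 had 12.6 and 15.4 FPKM and Slc30a9, linked to mitochondria, 9.97 and 14.3 FPKM.

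Below a step of 0.70 against a limit of 0.64 came the other 3 expressed exporter genes. Slc30a10, known chiefly as a manganese exporter, had 6.88 and 7.11 FPKM. Slc30a1, the MTF1 target ZnT1, had 6.41 and 4.96 FPKM, and Slc30a7 of the Golgi had 4.33 and 4.67 FPKM. The others were Slc30a3, known from synaptic vesicles, at 0.0671 and 0.0207 FPKM, and Slc30a8, known from insulin granules, which was listed at 0. Of the 10 ZnT genes 8 were expressed in both libraries, and that step was the only 1 of their 7 neighbouring steps to pass its limit.

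Metallothioneins, small cysteine-rich proteins that bind zinc and copper, were expressed in a steep order. Mt1 had 125 and 101 FPKM, Mt2 had 13.4 and 11.4 FPKM, and Mt3, known chiefly from the brain, had 1.43 and 2.48 FPKM. Mt1 exceeded Mt2 9.34-fold and 8.87-fold, a step of 3.09 in log2(FPKM + 1) against a limit of 0.67. The genes are neighbours on chromosome 8, at 94179082 to 94180327 for Mt1, 94172664 to 94173568 for Mt2 and 94152607 to 94154146 for Mt3, all on the plus strand. Mt4 of the same family, from the partner list, had 0.508 and 0 FPKM. The Mt2 level is uncertain, because 73.5% of its exon bases overlap Gm45774 on the other strand, and the strand setting of the authors' counting is not given. The more highly expressed Mt1 held fewer MRE cores than Mt2 in the windows printed above. Before the RefSeq start Mt1 held 1 core and Mt2 held 3. The other Mt1 cores began at bases 3 and 21 counted from that start. Such counts depend on the start used and leave out cores beyond the window. Whether these cells use the RefSeq starts, and what part the cores had in the levels, was not tested. The factor gene Mtf1 itself had 4.20 and 3.64 FPKM.

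Copper genes were led by the chaperone. Atox1, which hands copper to the pumps of the secretory pathway, had 232 and 188 FPKM. Slc31a1, the high-affinity importer CTR1, had 67.4 and 78.9 FPKM, 23.0 and 22.9 times the level of its relative Slc31a2 at 2.94 and 3.45 FPKM. The pumps were low: Atp7a, which delivers copper to the blood and is mutated in Menkes disease, had 2.37 and 2.74 FPKM, and Atp7b, mutated in Wilson disease, had 1.79 and 2.34 FPKM. The steps from Atox1 to Slc31a1 (1.51, limit 0.60) and from Slc31a1 to Slc31a2 (4.14, limit 0.66) passed their limits, and those from Slc31a2 to Atp7a and from Atp7a to Atp7b did not. All 5 copper genes were expressed in both libraries.

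**Figure D3:**
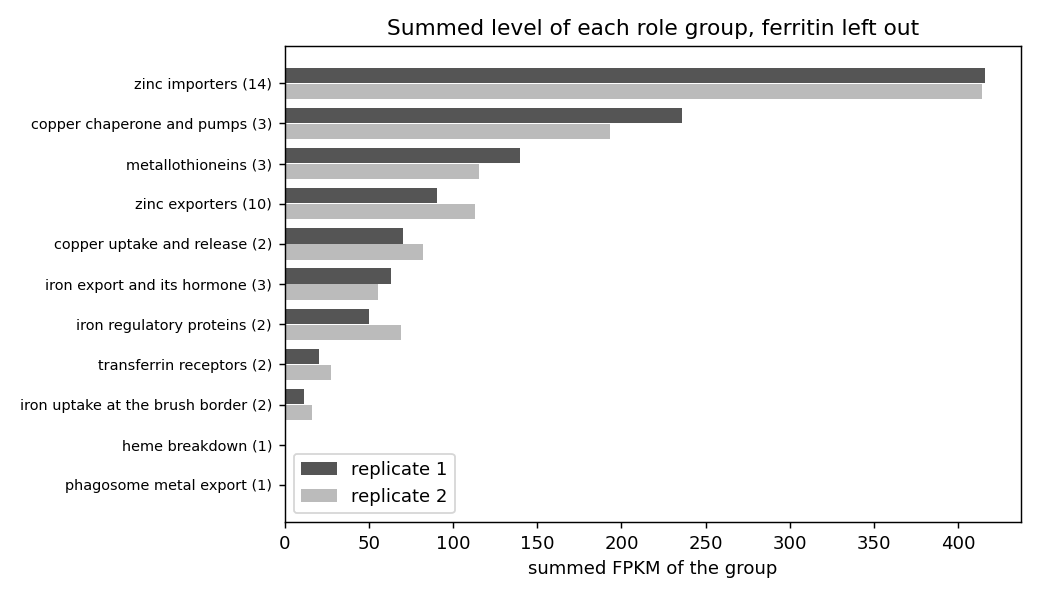
Summed FPKM of each role group in replicate 1 (dark bars) and replicate 2 (light bars), with the number of genes in brackets and the ferritin genes left out because they would hide the rest. Zinc importers reach 416 and 414 FPKM, and the copper chaperone and pumps 236 and 193 FPKM, nearly all of it Atox1.

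Ordered over all roles, the 35 members whose mean reached 1 FPKM gave 34 neighbouring pairs, of which 13 kept their order without overlap between libraries and 4 also passed the limit. These were the steps from Fth1 to Ftl1, from Ftl1 to Atox1, from Heph to Slc39a11 and from Slc30a9 to Slc30a10. The order of the other neighbours is not distinguished from the spread between the libraries by this limit and was not tested. Of 2 unpaired values against 2, 0.333 is the smallest p that an exact permutation test, two-sided, can return.

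Partner genes of the same pathways, listed by role, were mostly expressed too. Of 34 iron partners 23 (67.6%) reached 1 FPKM in both libraries, where 42.3% of all named genes did. The highest were Pcbp1, an iron chaperone that loads ferritin, at 132 and 152 FPKM, Slc46a1, the folate transporter also described as a heme carrier, at 95.5 ± 7.58 FPKM, and Pcbp2, a related chaperone, at 58.4 ± 1.40 FPKM. Fbxl5, which directs the breakdown of IRP2, had 29.0 ± 5.75 FPKM and Ncoa4, which directs ferritin breakdown, 21.9 ± 4.95 FPKM. Ftmt, Hamp2 and Hjv (under its older symbol Hfe2) were listed at 0. None of the 24 iron partners whose mean reached 1 FPKM differed by over 1 in log2(FPKM + 1), and 17 (70.8%) were higher in replicate 2 and 7 lower, beside 64.0% higher over all genes. The largest differences were those of Flvcr1 (listed as Mfsd7b), a heme exporter, with 9.94 and 15.9 FPKM, Ncoa4, and Epas1, the hypoxia factor HIF-2 alpha, with 2.49 and 1.58 FPKM.

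Of 6 zinc partners 4 were expressed. Crip1, a zinc-binding LIM protein first described in intestine, had 10163 and 8274 FPKM, above every member. Trpm7 and Gpr39, a receptor that responds to zinc, had 5.82 ± 1.12 and 4.54 ± 0.324 FPKM. Of 12 copper partners 10 were expressed, led by the mitochondrial carrier Slc25a3 at 567 ± 61.6 FPKM, the superoxide dismutase Sod1 at 560 ± 63.5 FPKM and the cytochrome oxidase chaperone Cox17 at 193 ± 17.4 FPKM. Sco2, another such chaperone, had 10.7 and 0.0405 FPKM. Of the exon bases of Sco2 91.8% overlap Tymp and Ncaph2, so this value is uncertain. Xiap at 8.30 and 12.1 FPKM and Cox11 at 7.16 and 10.2 FPKM had the next largest differences.

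Between the libraries the metal genes differed about as much as other genes. The median absolute difference in log2(FPKM + 1) was 0.25 over the 35 members past the 1 FPKM minimum on their mean and 0.22 over the 10601 genes past the same minimum. The median of replicate 2 minus replicate 1 was 0.15 for the members and 0.11 for all genes. In replicate 2, 25 of the members (71.4%) were higher and 10 were lower, where 64.0% of all genes were higher. A difference over 1 was found in 1 of 35 members, and in 1.53% of all genes. The difference exceeded the limit for genes of its level in 1 of 35 members, and in 5.14% of all genes.

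That member was Slc40a1, whose difference was -1.03, with 0.464 times the replicate 1 level in replicate 2, against a limit of 0.73. The value was -1.15 with replicate 2 rescaled by the median ratio of all genes and -1.22 after subtraction of the trend that the difference showed with GC content and transcript length. The gene rested on roughly 1063 and 807 fragments. Several other features moved with it. All 7 goblet cell markers, led by Tff3, had less in replicate 2, and they summed to 40304 and 19208 FPKM. Of 7 enteroendocrine genes 6 had less there, and the list summed to 3411 and 2721 FPKM. All 6 epithelial genes had less there too, with sums of 5735 and 4677 FPKM. Their median difference was -0.32, or -0.13 with the trend removed. The 8 enterocyte markers, led by Apoa1, were split 4 to 4, with sums of 37683 and 36595 FPKM. Apoa4 had 6393 and 10075 FPKM and Fabp1 had 3209 and 4884 FPKM, while Fabp6, the ileal bile acid binding protein, had 1247 and 390 FPKM. All 6 proliferation genes, led by Pcna, had more there, summing to 138 and 194 FPKM, as did the Paneth cell markers given above. The libraries also differed in sex-linked transcripts, with Xist at 7.91 and 0.00640 FPKM and the Y-linked gene Eif2s3y at 0 and 14.9 FPKM. The part of each of these in the Slc40a1 value was not tested, and in bulk RNA fewer cells of a type and less RNA per cell cannot be told apart.

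**Figure D4:**
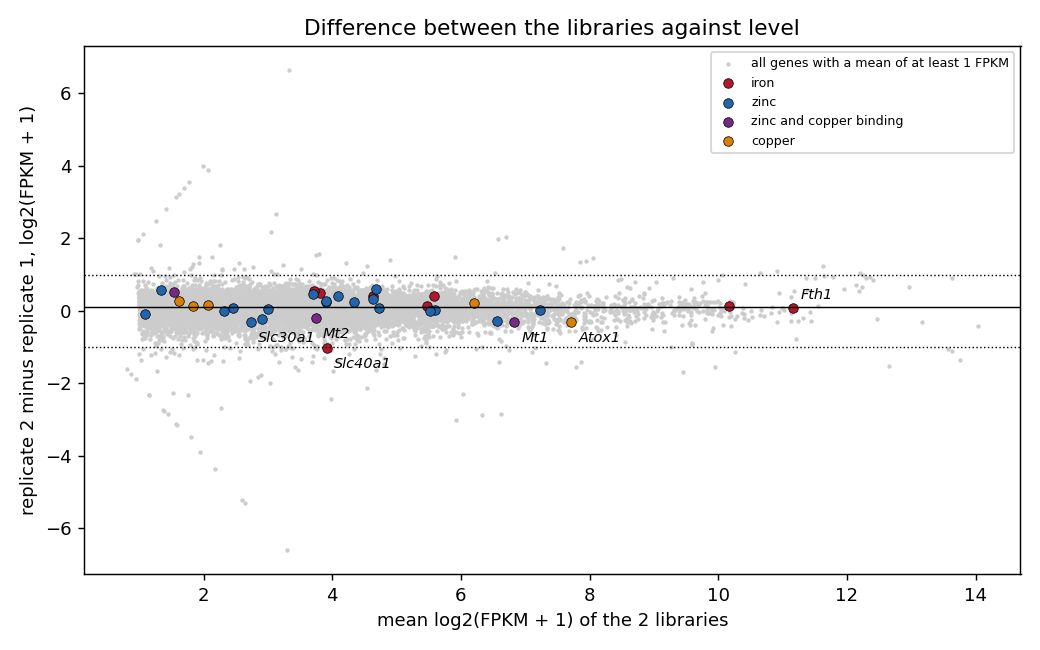
Replicate 2 minus replicate 1 in log2(FPKM + 1) against the mean of both libraries, with all genes of at least 1 FPKM in grey and the members coloured by metal. The solid line is the all-gene median of 0.11 and dotted lines mark a difference of 1; Slc40a1 is the only member beyond them.

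The other iron genes with a match to the IRE pattern did not share that difference. RNA levels do not measure translation, on which hairpins near the start act. Aco1, Ireb2 and Slc11a2, also given here, held no match to that pattern, which would miss a looser hairpin in their messages. Fth1 and Ftl1, with the hairpin at the same end as Slc40a1, differed by 0.07 and 0.13, about the median of all genes. Tfrc, with 4 hairpins behind the coding part, was higher in replicate 2 by 0.42, and the iron regulatory protein genes Aco1 and Ireb2 were higher by 0.42 and 0.56. Slc11a2 was higher by 0.50. None of these passed the limit for its level. After subtraction of that trend, with the all-gene median kept at 0.11, the differences were 0.11 for Fth1, 0.33 for Ftl1, 0.25 for Tfrc, 0.45 for Aco1, 0.40 for Ireb2 and 0.54 for Slc11a2.

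Among zinc and copper genes no member passed the limit for its level as deposited. Mt1 differed by -0.30, Mt2 by -0.21 and Slc30a1 by -0.32. With the trend removed they differed by -0.10, -0.10 and -0.39. Atox1 differed by -0.30, or -0.08 with the trend removed. As deposited, other members with MRE cores lay on both sides. Among them Slc30a4 differed by 0.27, Slc30a2 by 0.23, Slc30a10 by 0.04, Mt3 by 0.52, Slc39a3 by -0.22 and Slc39a5 by -0.27. Slc39a3 and Slc39a5 turned positive with the trend removed, at 0.17 and 0.01. Slc30a4 then had 0.106, Slc30a2 0.34 and Slc30a10 0.02, beside an all-gene median of 0.113. Slc39a8, also with a core, had -0.01 as deposited and -0.15 with the trend removed. With the trend removed Mt3 differed by 0.74, past the 0.71 that is its limit for values as deposited, on roughly 9 and 23 fragments. Of the 8 expressed exporters 7 were higher in replicate 2, led by Slc30a5 at 0.59, but 5 lay above the all-gene median and 3 below it, and with the trend removed 4 lay above and 4 below. Of 11 expressed importers 6 were higher and 5 lower in replicate 2, and 3 lay above the all-gene median and 8 below it, which turned to 8 above and 3 below with the trend removed. The median over the importers was 0.03, or 0.19 with the trend removed, and that over the exporters 0.24, or 0.11, so the contrast between them depends on the scaling.

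GC content went with these differences. Across genes, which are not independent replicates, Spearman's rho between the difference and the GC content of the longest RefSeq-linked transcript was -0.51 over 10163 genes and -0.44 over the 35 members. By quintile of GC content, the median difference over all genes was 0.28 in the quintile poorest in GC and -0.15 in the richest. The members higher in replicate 2 had a median GC content of 47.9% and those lower one of 57.8%. Signs were compared under the values as deposited, rescaled and with the trend removed. In all 3 cases 18 members were positive and 6 negative, and 11 changed sign. The cases are centred differently, with all-gene medians of 0.112, -9.01e-05 and 0.113, so a sign is not a direction against other genes. Of the 18, Slc31a1 (0.035), Heph (0.069), Atp7a (0.071), Slc31a2 (0.076) and Slc30a4 (0.106) lay below the all-gene median with the trend removed. The 6 were Slc40a1, Atox1, Mt1, Mt2, Slc30a1 and Slc39a8. Fth1, Ftl1, Slc39a4 and Slc39a5 were among the 11, so no direction is given for them. Slc39a5 was among the 11 only through its 0.01 with the trend removed, which is below the all-gene median.

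**Figure D5:**
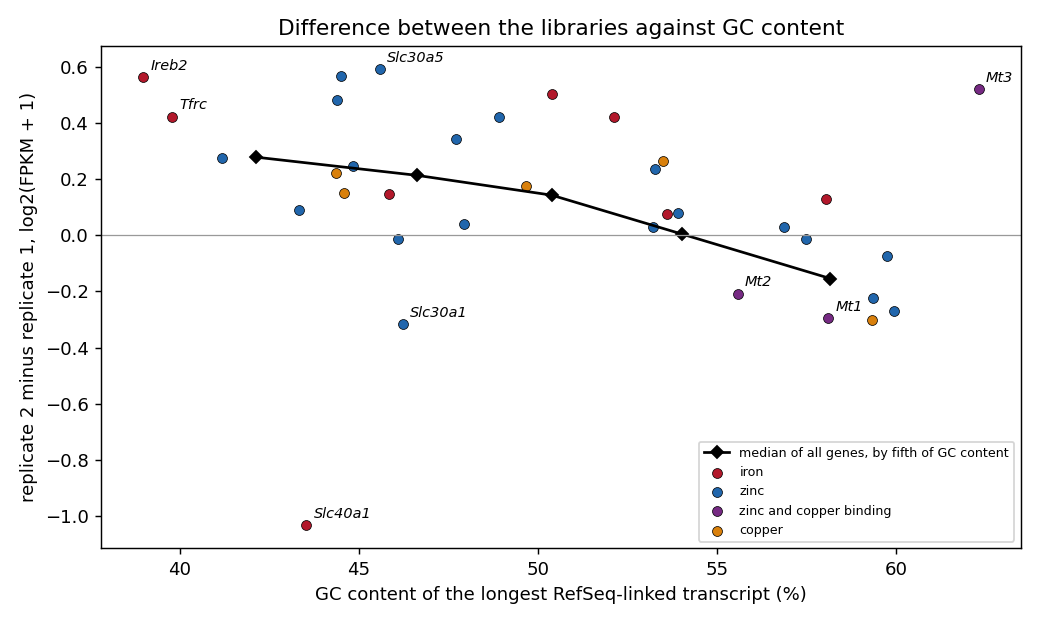
Replicate 2 minus replicate 1 in log2(FPKM + 1) against transcript GC content in percent for 35 members, coloured by metal. Black diamonds join the medians of all genes by GC quintile, 0.28 in the poorest and -0.15 in the richest; Slc40a1 and Slc30a1 lie under that line and Mt3 above it.

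The sort can be checked on the same tables. All 6 epithelial genes were expressed, with Krt8 the highest at 2461 and 2036 FPKM, and all 6 were lower in replicate 2. Markers of T cells, B cells and stroma had none of 5, 4 and 6 members at 1 FPKM in both libraries, the highest being Cd3g, Cd79b and Pecam1, each under 1 FPKM. Of 7 myeloid genes 3 reached 1 FPKM in both libraries, led by Lyz2, and so did 2 of 4 hepatocyte genes. The globins Hbb-b1 at 24.4 ± 2.84 FPKM and Hba-a1 were the only 2 of 6 red cell genes to reach it. The steps between the lowest values put the libraries at approximately 16100000 and 26500000 fragments, a depth at which levels near 0.1 FPKM rest on a few fragments. Nothing in the labels says that the libraries came from separate animals. The sex-linked transcripts given above have the female pattern in replicate 1 and the male pattern in replicate 2. By these transcripts the libraries did not come from the same animal. Sex therefore cannot be told apart from other differences between the libraries.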

How the data were processed

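The authors deposited FPKM, 1 value per gene symbol and library. TopHat2 2.0.14, Cufflinks 2.2.1 and mm10 are named by the submitters' processing notes; for annotation, strand setting and multiply matching reads nothing is given in the sources used here. Since FPKM are not counts, count models were not applied. Of 24384 rows, 27 carried a date for a symbol and were left out. Differences are on log2(FPKM + 1), which understates those of low genes. Depth was read from the steps between low FPKM values; 63.3% and 64.6% of these lay within 0.05 of a whole fragment number, so fragment numbers are approximate, and floors of 3 fragments cover counting error only. The limits on differences are the 95th percentile among the 200 genes nearest in level. They hold the spread of single genes between the libraries and do not cover a bias of a gene that both libraries share. The trend was the median difference in 10 GC bins by 5 length bins, and all 45 members had both values. Words were 50 bases, both strands, in GENCODE M21. Members and lists were chosen with earlier results of these data known. All members may be named; of partner lists the 3 highest, those at 0 and the 3 largest differences were named, and of marker lists the highest. Fbxl5, the Steap genes, Hmox2, Mt4, Mtf1, Alb, Ahsg, Ttr, Serpina1a, Adgre1, Fabp6, Fabp1, Apoa4, Blvrb, Alas1, Hba-a1, Xist and Eif2s3y were added after their values were seen. Proteins were not used here. Alternatives changed the minimum, pseudocount, scaling, trend, neighbours and libraries. The functions for differences, limits, the trend and separated neighbours were tested on simulated data. No such test is given for the sequence searches, shared words or depth. Python 3.11.15, numpy 2.4.6, pandas 2.3.3, scipy 1.17.1 and matplotlib 3.10.9 were used.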

Additional observations from a re-analysis of the deposited data

How the results depend on the processing

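Over 20 alternatives for the 5 summary results, 2 counts moved by more than 1.5 times and the sign of the median difference stayed positive. Single members did change sign with the scaling, 11 of 35. The number of expressed members was 40 at a minimum of 0.1 FPKM and 26 at 5 FPKM, beside 54.0% and 26.7% of all genes. It was 35 without replicate 1 and 36 without replicate 2, beside 43.5% and 43.3% of all genes. The median difference between the libraries ranged from 0.02 with replicate 2 rescaled to 0.17 after subtraction of the GC and length trend. The all-gene medians in these cases were -9.01e-05 and 0.113. The number of members differing by more than 1 was 2 at a minimum mean of 0.1 FPKM, where Hamp joined Slc40a1 because more genes are tested. It was 1, Slc40a1, under the other 5 alternatives. Of all genes 1.26% differed by more than 1 at that minimum, and 1.35% to 2.75% did under the other 5. Separated neighbours numbered 2, not 4, with the 100 nearest genes in place of 200; the steps from Fth1 to Ftl1 and from Slc30a9 to Slc30a10 were lost, and the cause was not tested. The share of the 5 highest members was 86.0% to 86.6% when either library was left out. No paired analysis was possible because there is 1 group. Depth limits what can be said of members under about 0.1 FPKM.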
